A study of Mus musculus with 6 samples.

Results

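The 39 genes described here encode proteins that copy DNA in S phase or that carry a cell through mitosis. They were listed by symbol, and all 39 had a row among the 23508 genes of the count table once its Ensembl identifiers were given GENCODE M21 symbols. For the comparison of phases, 20 were placed with S phase and 19 with mitosis. RNA was sequenced from 6 mouse tumors of 4T1, a mouse mammary carcinoma line that stands in for triple-negative disease. In 3 tumors, RNA was taken before the first peak of neural activity in the tumor, and in the other 3 on the day of that peak. No treatment or engineered allele is named for either group, and the sources used here do not give tumor age, host strain or sex. Nothing in the labels ties the tumors to separate animals, so p-values measure the spread between these samples, which may not be the spread between animals. The question is which transcripts differ between tumors taken before the peak and on its day. The design cannot tell neural activity apart from the time of collection or tumor growth.

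A dividing cell first licenses its replication origins by loading the MCM2 to MCM7 helicase with CDC6 and CDT1, and cyclin E then helps to start replication. Ribonucleotide reductase and thymidylate synthase supply deoxynucleotides, and PCNA clamps the polymerases to the template. Later, cyclin A, cyclin B and CDK1 drive entry into mitosis, Aurora and Polo-like kinases with motor proteins build the spindle, and BUB1B holds CDC20 back until chromosomes are attached. Transcripts of the first kind are known targets of E2F factors, and those of the second kind of the MuvB complex with B-MYB and FOXM1. In carcinomas, such transcripts mark cycling cells.

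The promoters of both classes are shown with short motifs. Since the transcripts are known targets of E2F or MuvB factors, the motif shares below are not independent of the choice of genes. RefSeq promoters of build GRCm38.p6, each running from 250 bases before to 50 bases after the annotated start, were found for 30 of the 39 genes, 16 of S phase and 14 of mitosis. Both strands were searched for the CHR, the cell cycle genes homology region (TTTGAA or TTCGAA), for the CCAAT box bound by NF-Y, and for an E2F core (TTGGCGC or TTGCCGC or TTCGCGC or TTCCCGC). A CHR together with a CCAAT box occurred in 11 of 14 mitotic promoters (78.6%) and in 2 of 17 S phase promoters (11.8%). Over all 32851 promoters of this length the share was 7.52%, and over the 14535 promoters of tested genes it was 5.85%. An E2F core occurred in 12 of 17 S phase promoters (70.6%), counting both promoters of Mcm7, and in 3 of 14 mitotic promoters (21.4%), against 9.57% of all promoters and 15.4% of those of tested genes. The CCAAT box, with or without a CHR, was present in 85.7% of mitotic, 64.7% of S phase and 37.4% of all promoters. Median GC content was 58.3% in mitotic and 57.7% in S phase promoters, against 60.0% in promoters of tested genes. A match describes letters and is not evidence of binding, and a missing match is not evidence against it. Motifs can share letters, as where an E2F core read on the other strand runs into a CCAAT box in the Ccnb1 promoter.

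The mitotic promoters printed are those with a CHR and a CCAAT box from the genes with the smallest p-values in the comparison of tumors. Capitals mark both motifs on either strand. Mki67, which encodes the chromosome surface protein Ki-67, is at chr7:135716330-135716629 on the minus strand. Bub1b, a spindle checkpoint kinase gene, is at chr2:118597961-118598260 on the plus strand, and Cenpf, a kinetochore protein gene, is at chr1:189688037-189688336 on the minus strand.
Mki67: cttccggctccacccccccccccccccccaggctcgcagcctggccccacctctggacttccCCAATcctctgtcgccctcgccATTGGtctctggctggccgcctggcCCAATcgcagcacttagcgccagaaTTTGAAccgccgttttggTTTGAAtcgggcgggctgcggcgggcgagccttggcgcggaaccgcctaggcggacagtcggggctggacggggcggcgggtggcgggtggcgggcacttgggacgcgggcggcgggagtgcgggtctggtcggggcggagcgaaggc
Bub1b: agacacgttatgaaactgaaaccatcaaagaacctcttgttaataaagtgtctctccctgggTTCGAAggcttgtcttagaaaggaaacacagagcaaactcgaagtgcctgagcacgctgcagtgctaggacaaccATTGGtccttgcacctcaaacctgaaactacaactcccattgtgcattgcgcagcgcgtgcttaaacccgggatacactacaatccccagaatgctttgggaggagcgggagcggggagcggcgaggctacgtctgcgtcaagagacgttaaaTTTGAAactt
Cenpf: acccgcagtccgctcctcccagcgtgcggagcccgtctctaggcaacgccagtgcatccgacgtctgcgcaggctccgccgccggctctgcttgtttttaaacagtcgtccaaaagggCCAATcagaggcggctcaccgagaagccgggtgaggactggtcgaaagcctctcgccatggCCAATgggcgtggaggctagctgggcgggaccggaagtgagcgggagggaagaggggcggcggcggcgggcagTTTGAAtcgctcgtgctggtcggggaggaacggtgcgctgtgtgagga

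Mki67 held 2 CHR and 3 CCAAT matches, with the CHR copies starting 116 and 98 bases before the start site. In Cenpf the single CHR lay next to the start site, downstream of both CCAAT boxes. Bub1b had a CHR on each side of the start site. The 3 mitotic promoters with no CHR match were those of Birc5, Ccnb1 and Nusap1.

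The S phase promoters printed were taken in the same way from genes with an E2F core, which the capitals mark. Rrm2, the small subunit of ribonucleotide reductase, is at chr12:24708004-24708303 on the plus strand. Mcm6 is at chr1:128359656-128359955 on the minus strand and Mcm5 at chr8:75109259-75109558 on the plus strand, and both encode helicase subunits.
Rrm2: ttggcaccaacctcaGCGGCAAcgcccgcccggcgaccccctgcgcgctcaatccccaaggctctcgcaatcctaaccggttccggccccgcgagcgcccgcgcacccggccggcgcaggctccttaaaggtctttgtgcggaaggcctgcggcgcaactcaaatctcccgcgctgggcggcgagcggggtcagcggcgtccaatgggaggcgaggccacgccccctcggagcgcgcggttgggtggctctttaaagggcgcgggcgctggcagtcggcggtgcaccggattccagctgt
Mcm6: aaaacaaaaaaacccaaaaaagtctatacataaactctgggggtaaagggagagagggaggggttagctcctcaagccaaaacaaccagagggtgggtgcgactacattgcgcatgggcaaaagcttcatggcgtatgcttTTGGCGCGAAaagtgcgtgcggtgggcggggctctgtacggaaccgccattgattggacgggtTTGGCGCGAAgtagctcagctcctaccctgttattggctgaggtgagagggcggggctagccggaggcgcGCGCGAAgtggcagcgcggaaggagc
Mcm5: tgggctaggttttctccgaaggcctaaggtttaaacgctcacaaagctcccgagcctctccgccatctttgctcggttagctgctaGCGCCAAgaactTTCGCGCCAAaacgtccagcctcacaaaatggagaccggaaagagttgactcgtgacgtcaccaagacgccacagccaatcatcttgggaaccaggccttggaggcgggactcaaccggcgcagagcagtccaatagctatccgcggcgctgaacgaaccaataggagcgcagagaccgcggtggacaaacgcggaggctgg

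Overlapping cores on both strands give the long runs of capitals in Mcm6 and Mcm5, which held 5 and 3 matches, while Rrm2 held 1 far upstream. No E2F core was found in the promoters of the 5 S phase genes Ccne1, E2f1, Mcm2, Pcna and Tyms. For Mcm4, Ccna2, Foxm1 and Aurkb, among others, no promoter is printed or counted.

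**Figure D1:**
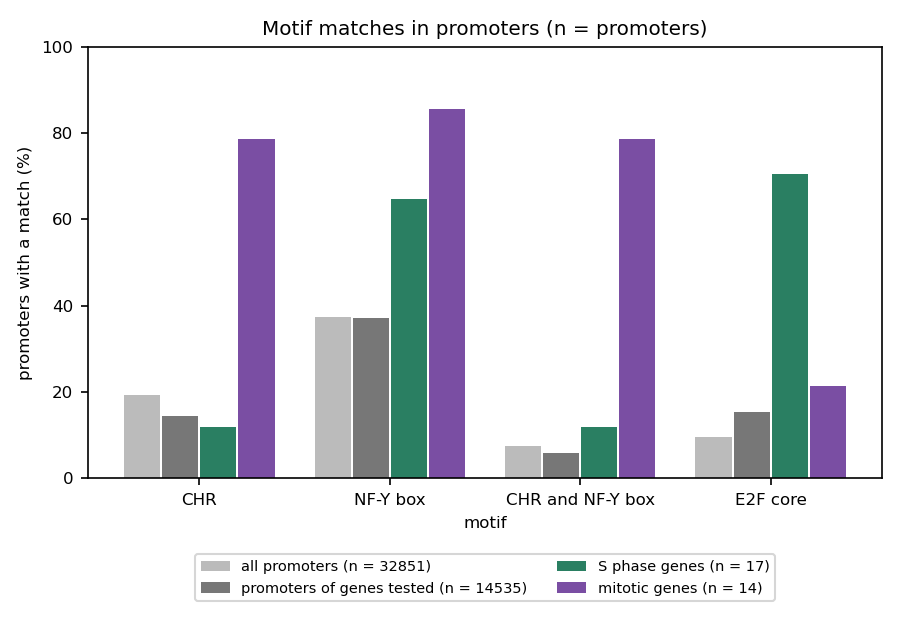
Share of promoters (%) with at least 1 match to each motif, on either strand, in all RefSeq mouse promoters, promoters of tested genes, and those of S phase and mitotic genes. The NF-Y box is the CCAAT box. The CHR bar is high for mitotic genes (78.6%) and the E2F bar for S phase genes (70.6%).

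Total counts ran from 10591067 to 14549357 per tumor. Carcinoma markers were present in every tumor, with Epcam, an epithelial adhesion gene, at 193.6 to 399 CPM (counts scaled to a common library size, with TMM factors). Before-peak replicate 3 stood apart in lymphocyte genes, with a B and plasma cell score of 5.77 against -0.43 to 3.27 elsewhere, and with-peak replicates 2 and 3 in skeletal muscle genes, at 5.72 and 5.83 against 1.57 to 3.46, and in erythroid genes. A score is the mean log2 CPM of a list. All 39 genes passed the filter on low counts, with 58 to 5237 counts per gene and tumor.

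On the day of the peak, 38 of the 39 transcripts had a negative log2 fold change against tumors taken before it, but none of them passed the test. All 19 mitotic genes and 19 of 20 S phase genes were on the lower side. The differences were small: the median log2 fold change was -0.22 over all 39, -0.27 over S phase and -0.17 over mitotic genes, against -0.02 over all 16755 tested genes, of which 52.3% were negative. The values ran from -0.49 for Cdc6 to 0.03 for Gins2, with standard errors (SE) of 0.10 to 0.27. At an edgeR quasi-likelihood adjusted p under 0.05, 0 of 39 were called, as were 0.0% of all genes. The smallest edgeR adjusted p among the 39 was 0.396, for Mcm4. DESeq2 called 0 of the 39, against 1.51% of all genes (1.38% higher and 0.131% lower with peak), and limma-voom called 0, against 0.0%.

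At an unadjusted p under 0.05 there were 5 of the 39, all lower with peak: Mcm4, Mki67, Bub1b, Rrm2 and Mcm6. This is 12.8% of them, where 9.5% of all tested genes passed that level, 6.12% higher and 3.38% lower with peak. Scaling by library size alone raised the 5 to 13, and turned the split of all genes at this level from 1025 higher and 567 lower to 768 higher and 1020 lower. Leaving out a single tumor gave 1 gene in the case of with-peak replicate 1 or before-peak replicate 2, 2 genes for before-peak replicate 3 and 13 genes for with-peak replicate 3. It gave 4 genes for before-peak replicate 1 and 5 genes for with-peak replicate 2. The groups did not overlap, with every with-peak tumor below every before-peak tumor, for 11 of the 39 (28.2%), 5 of S phase and 6 of mitosis, against 7.38% of all genes, and for none in the other direction, against 8.13%. Of the 11117 genes at or above the lowest of the 39 in mean CPM, 8.36% were lower without overlap. Of these genes, 4.08% were lower at an unadjusted edgeR p under 0.05, and 54.7% were negative. No log2 fold change reached -0.5, a size that 6.54% of all genes reached. The estimates of all genes were less precise, with a median SE of 0.212 against 0.135 for the 39. Genes of 1 program share the same 6 tumors, so the counts among the 39 are not independent of each other. In bulk tissue, fewer cycling cells and less of a transcript per cell cannot be told apart.

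**Figure D2:**
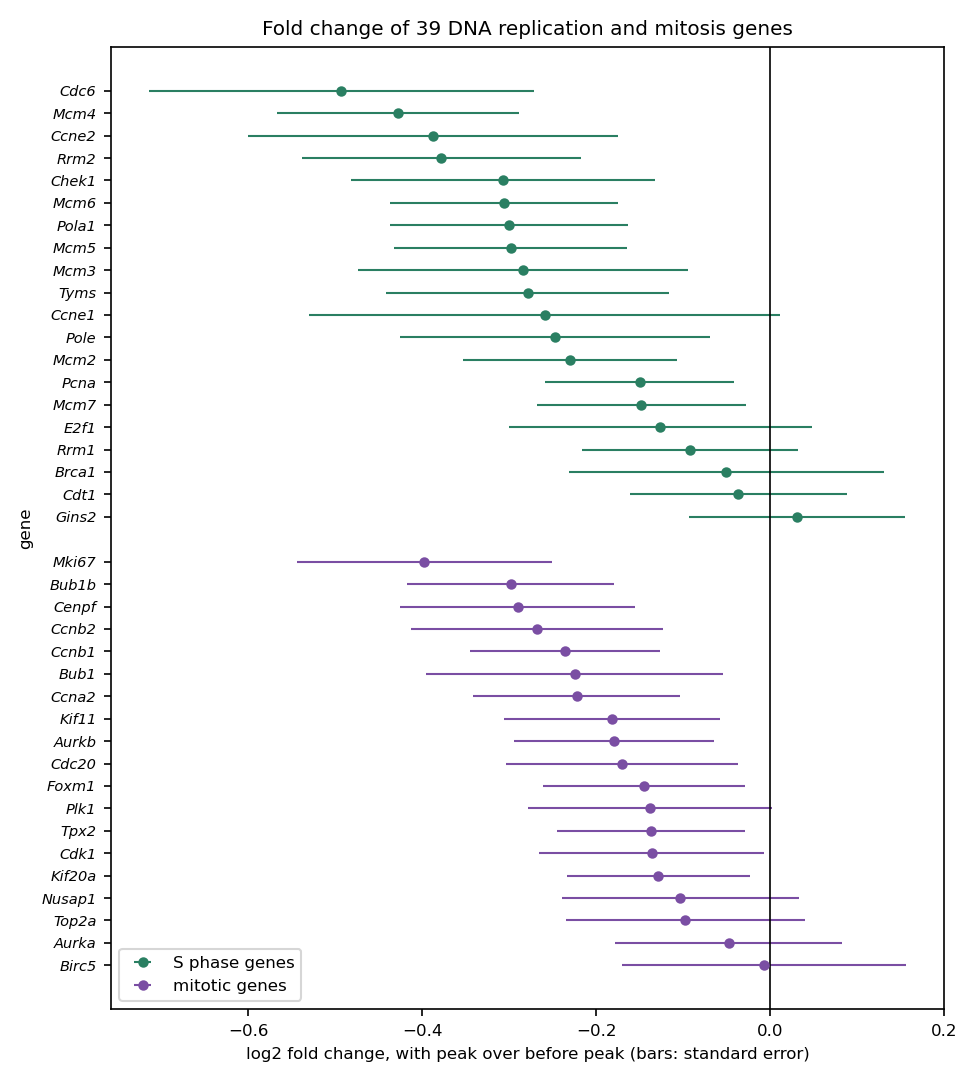
Log2 fold change of each gene, with-peak over before-peak tumors (x axis), with bars of 1 standard error, for S phase genes (upper block) and mitotic genes (lower block), ordered by value. Points lie left of 0 except Gins2, and many bars come close to or cross 0.

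Among licensing and helicase genes, Mcm4 (chromosome 16, 15623897 to 15637400, GRCm38) had the smallest p-value of all 39. In order of replicate, here and below, it was at 96.0, 114 and 99.3 CPM before the peak and at 66.8, 72.5 and 90.4 CPM with it. The groups did not overlap, and with-peak replicate 3 came close to the before-peak tumors (log2 fold change -0.43, SE 0.14). Mcm6 was at 164, 185 and 165 CPM before the peak and at 123, 130.3 and 163 CPM with it, a log2 fold change of -0.31 (SE 0.13). Mcm5 had 122.5, 119.6 and 129 CPM before the peak against 82.3, 108 and 112 CPM. Again the with-peak tumors lay below, with replicate 1 lowest in both genes. For Mcm2 the values were 92.7, 87.0 and 95.9 CPM before the peak and 69.0, 77.6 and 88.6 CPM with it, and the groups overlapped. Mcm3 and Mcm7 had log2 fold changes of -0.28 and -0.15 and overlapped too. Mcm7 shares 321 exonic bases with Ap4m1 and 64 with Cops6, both on the opposite strand, so its counts are uncertain.

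The helicase loaders differed in the size of their estimates. Cdc6 (chromosome 11, 98907801 to 98923940) had the most negative estimate, with 23.8, 17.7 and 22.3 CPM before the peak and 11.1, 16.2 and 18.04 CPM with it. The log2 fold change was -0.49 (SE 0.22), with an edgeR adjusted p of 0.525. With-peak replicate 3 exceeded before-peak replicate 2, and the estimate was -0.31 when with-peak replicate 1 was left out. Cdt1, its partner in loading, was at 54.4 to 60.5 CPM before the peak and 50.2 to 62.7 CPM with it, a log2 fold change of -0.04. Gins2, a subunit of the active helicase, was at 57.1, 49.5 and 45.5 CPM before the peak and at 51.3, 53.6 and 50.4 CPM with it. Its log2 fold change of 0.03 was the single positive one, and 2758 of its exonic bases are shared with Gse1 on the opposite strand, a gene with a log2 fold change of -0.17.

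Nucleotide supply was led by Rrm2 (chromosome 12, 24708241 to 24714146), at 74.5, 73.3 and 85.5 CPM before the peak and 47.1, 72.1 and 60.3 CPM with it. With-peak replicate 2 missed the before-peak range by little (log2 fold change -0.38, SE 0.16; edgeR adjusted p = 0.516). Rrm1, the large subunit of the same enzyme, differed less, with a log2 fold change of -0.09 (SE 0.12), and Tyms, the thymidylate synthase gene, had one of -0.28 (SE 0.16). Pcna was at 188, 169 and 195 CPM before the peak and 156, 170.3 and 171 CPM with it, so the groups overlapped. The polymerase genes Pola1 and Pole had log2 fold changes of -0.30 and -0.25, and the groups did not overlap for Pola1.

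For the regulators of S phase entry, the groups overlapped. Ccne1, a cyclin E gene, was at 8.51, 9.08 and 11.3 CPM before the peak and 9.61, 8.85 and 5.63 CPM with it, overlapping. Ccne2, the other cyclin E gene, was at 22.2, 18.9 and 22.9 CPM against 14.7, 21.2 and 13.0 CPM, and 609 of its exonic bases are shared with Ints8. These genes were lowest in with-peak replicate 3, in contrast to most others. E2f1, the transcription factor, ranged from 34.7 to 51.4 CPM before the peak and from 35.6 to 46.7 CPM with it. The checkpoint kinase gene Chek1 and the repair gene Brca1 had log2 fold changes of -0.31 (SE 0.18) and -0.05 (SE 0.18).

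Mki67 (chromosome 7, 135689784 to 135716361) had the most negative mitotic estimate. Its values were 228, 297 and 308 CPM before the peak and 187, 207 and 238 CPM with it. The log2 fold change was -0.40 (SE 0.15; edgeR adjusted p = 0.448). The groups overlapped through with-peak replicate 3, which exceeded before-peak replicate 1. Bub1b (chromosome 2, 118598211 to 118641591) was at 57.7, 69.9 and 66.7 CPM before the peak and 51.8, 50.7 and 55.6 CPM with it, with no overlap (log2 fold change -0.30, SE 0.12). Its fellow checkpoint gene Bub1 had 36.8, 43.5 and 42.5 CPM against 30.7, 30.6 and 44.0 CPM, the last being the highest of all 6. Cdc20, the activator of the anaphase-promoting complex, had a log2 fold change of -0.17, also with overlap.

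The cyclin and kinase genes that time mitosis had log2 fold changes from -0.27 for Ccnb2 to -0.05 for Aurka. Ccnb1 was at 64.5, 68.3 and 63.4 CPM before the peak and 52.1, 56.9 and 57.6 CPM with it, with no overlap, and its log2 fold change was -0.24 with an SE of 0.11 (edgeR adjusted p = 0.537). Ccna2, the cyclin A gene, was at 127, 146 and 129 CPM against 102, 117 and 125.5 CPM, also without overlap, and shares 510 exonic bases with Exosc9. Cdk1, the kinase that cyclin B activates, had 131, 142 and 108.5 CPM before the peak against 105, 121.0 and 121.0 CPM. The groups overlapped at a log2 fold change of -0.14 (SE 0.13), and Ccnb2, at -0.27, overlapped too. Foxm1, the transcription factor of late cell cycle genes, was at 55.1, 58.6 and 57.1 CPM before the peak and 46.7, 52.96 and 54.9 CPM with it, a narrow gap with a log2 fold change of -0.15 (SE 0.12). Among the kinases, Aurkb, of the chromosomal passenger complex, did not overlap (-0.18), while Aurka and Plk1 did, at -0.05 and -0.14.

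Genes of chromosome structure and the spindle completed the class. Top2a, the topoisomerase that untangles chromosomes, was at 317, 410.0 and 384.5 CPM before the peak and 337, 307.5 and 394.5 CPM with it, with a log2 fold change of -0.10. Cenpf was at 92.7, 99.4 and 103 CPM before the peak and 77.6, 68.9 and 94.7 CPM with it, a log2 fold change of -0.29 (SE 0.13), overlapping through with-peak replicate 3. The motor and spindle genes Kif11, Kif20a, Tpx2 and Nusap1 had log2 fold changes of -0.18, -0.13, -0.14 and -0.10, and Kif20a alone among them had no overlap. Birc5, survivin, the partner of Aurora B, was at 66.6, 72.0 and 60.7 CPM against 50.3, 75.1 and 73.3 CPM, with with-peak replicate 1 lowest and the other with-peak tumors highest of the 6. Without with-peak replicate 1 its log2 fold change was 0.16. Reads of Kif20a, Plk1, Cdc20, Nusap1 and Pole could also come from genes on the opposite strand that share exonic bases with them.

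**Figure D3:**
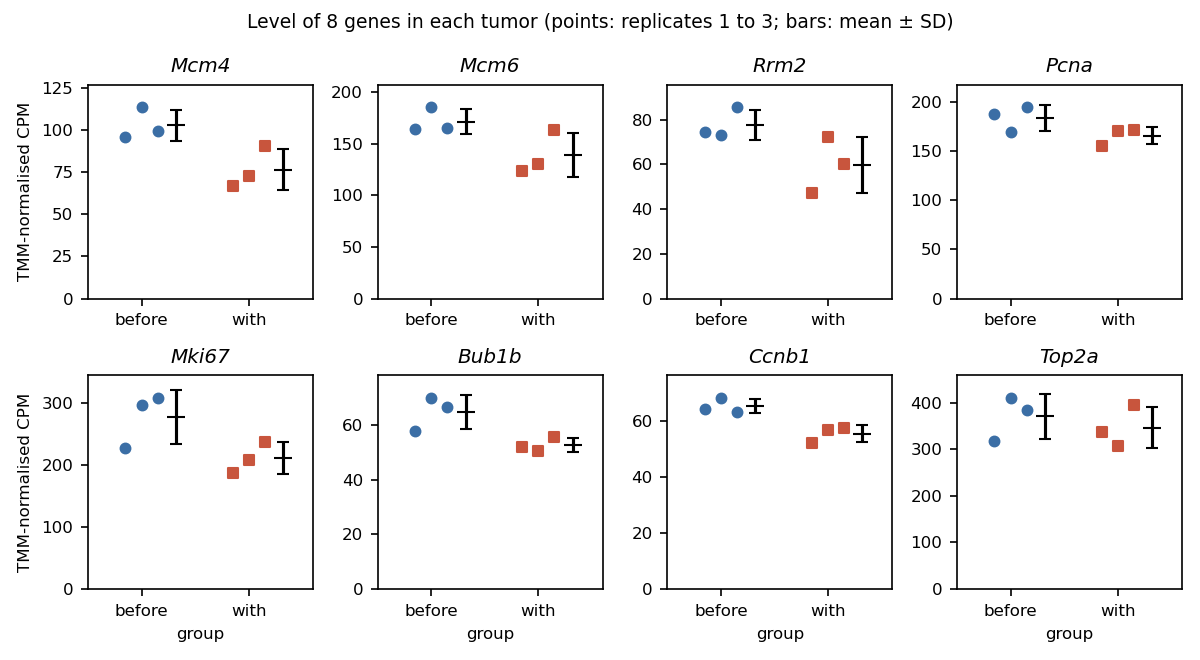
TMM-normalised CPM (y axis, from 0) of 8 genes in each tumor, with circles for before-peak and squares for with-peak replicates 1 to 3 from left to right, and bars for mean ± SD. The groups are separate for Mcm4, Mcm6, Rrm2, Bub1b and Ccnb1 and overlap for Pcna, Mki67 and Top2a.

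The tumors did not contribute evenly. With-peak replicate 1 was the lowest of the 6 for 25 of the 39 genes, and was the lowest for 16.04% of all tested genes. It lay below all before-peak tumors for 34 of the 39, with-peak replicate 2 for 30 and with-peak replicate 3 for 13; over all genes these shares were 26.5%, 31.95% and 25.7%. The highest value was in before-peak replicate 2 for 14 genes (35.9%) and in before-peak replicate 3 for 15 (38.5%). Over all tested genes, these tumors were highest for 18.7% and 17.1%. Within groups, the S phase score spread by 0.013 (SD) before the peak and by 0.156 with it. Without with-peak replicate 1 the median log2 fold change was -0.15 for S phase and -0.10 for mitotic genes, and 35 of the 39 were negative.

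**Figure D4:**
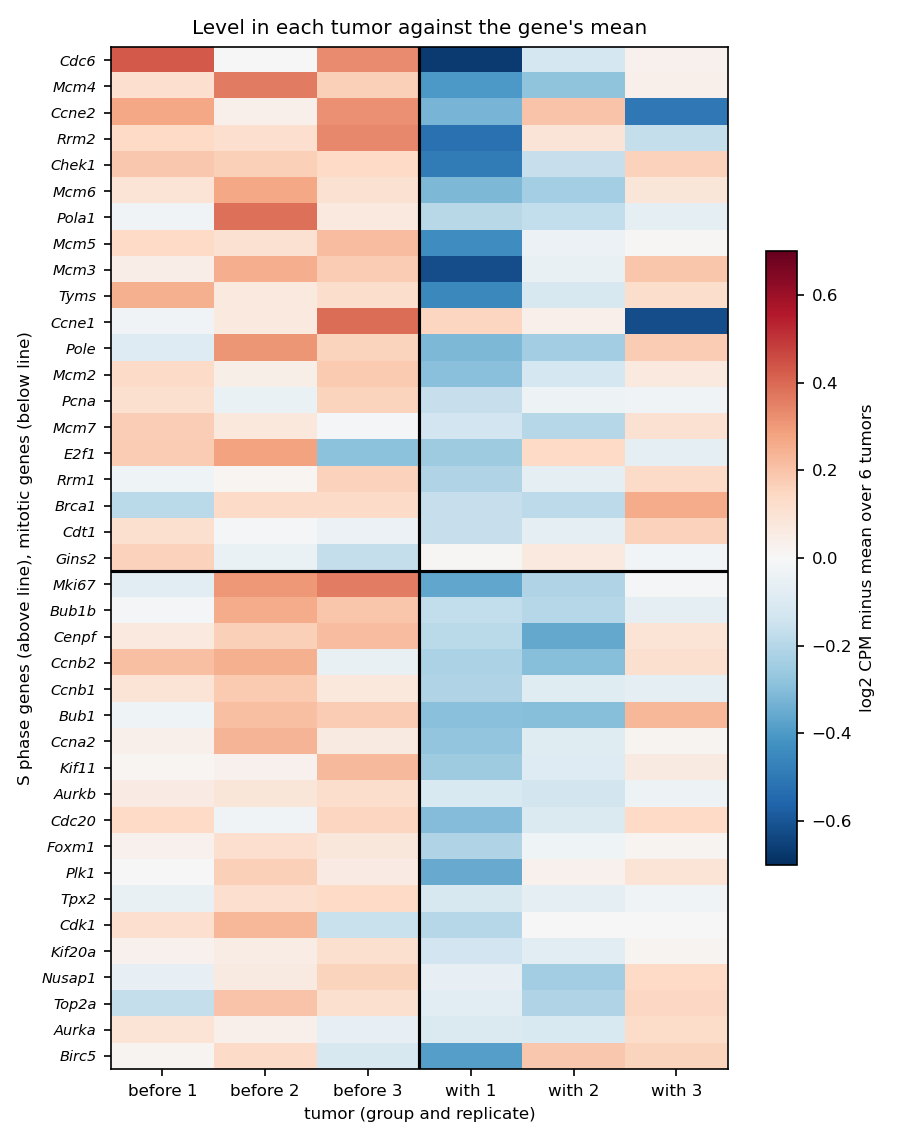
Log2 CPM of each gene in each tumor minus the mean of that gene over the 6 tumors (color), with tumors in columns and S phase genes above and mitotic genes below the horizontal line. Blue is most frequent in with-peak replicate 1, the lowest tumor for 25 of 39 genes, and with-peak replicate 3 is close to the before-peak tumors.

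S phase and mitotic genes were then set against each other within each tumor, where library size cancels. Before the peak the S phase score was 5.82, 5.84 and 5.84, and with it 5.41, 5.63 and 5.71, with no overlap. The mitotic score ran from 6.29 to 6.42 in before-peak and from 6.06 to 6.33 in with-peak tumors, and overlapped through with-peak replicate 3. The S phase score minus the mitotic score was -0.48, -0.58 and -0.52 before the peak and -0.65, -0.51 and -0.62 with it. The groups overlapped, and the difference of their means, -0.065, was about the size of their spread (SD 0.050 and 0.070, n = 3). With the median over genes in place of the mean it was -0.003. A stricter pair of lists left out Ccne1, Ccne2, E2f1, Chek1, Brca1, Mki67, Top2a, Ccna2, Cdk1 and Foxm1. With these lists the difference ran from 0.204 to 0.275 in before-peak and from 0.081 to 0.225 in with-peak tumors, again overlapping. These scores were not tested, since their genes were chosen with results known.

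The carcinoma epithelial markers were lower with peak as well. Of 20 markers 18 were negative (median log2 fold change -0.28), and their score was 6.65, 6.87 and 6.43 before the peak and 6.38, 6.10 and 6.41 with it, without overlap. Their summed level, scaled by total counts without TMM factors, was 4803 to 6141 CPM before the peak and 3741 to 5422 CPM with it. None of the 20 was at 0 in either group. Krt5, a basal keratin gene, had a log2 fold change of -1.57 (edgeR adjusted p = 0.198). When the epithelial score was subtracted from the score of all 39 genes, the values were -0.60, -0.75 and -0.33 before the peak and -0.65, -0.22 and -0.40 with it. These overlapped, and their mean was higher with peak, by 0.141, which is less than the spread between tumors (SD 0.213 and 0.219). This difference was 0.003 with medians over genes, and with single tumors left out it was 0.038 (with-peak replicate 2), 0.046 (before-peak replicate 2) and 0.256 (with-peak replicate 1, or before-peak replicate 3).

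**Figure D5:**
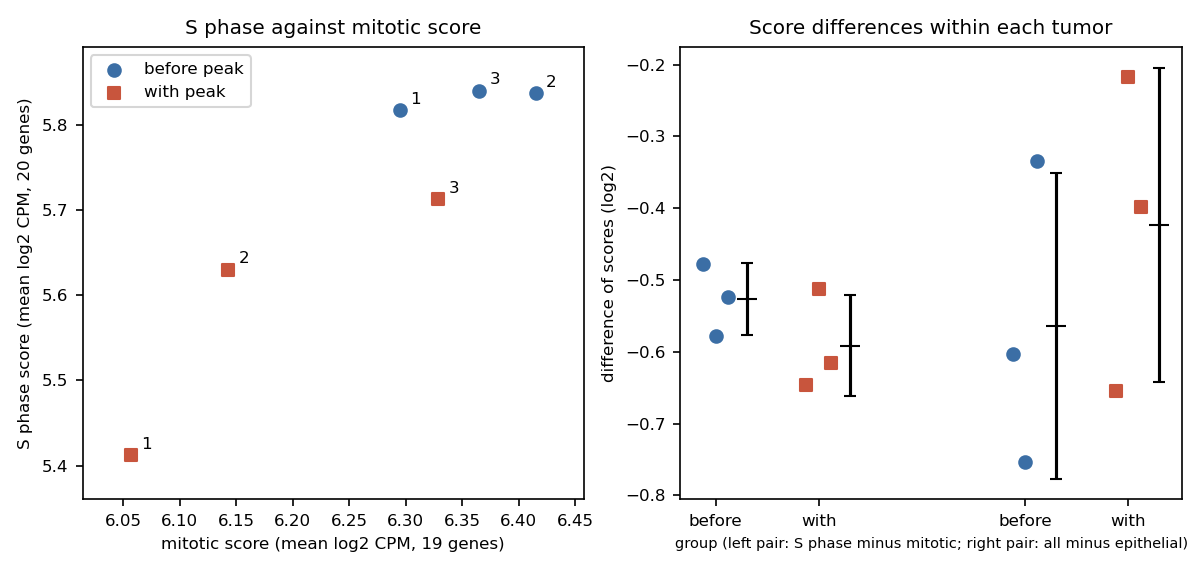
Left, S phase score against mitotic score (mean log2 CPM) for each tumor, numbered by replicate; right, score differences within each tumor (log2), with points for tumors and bars for mean ± SD. S phase scores of the groups are apart (5.82 to 5.84 and 5.41 to 5.71), while both differences on the right overlap.

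Markers of other cell types differed between the groups too, and the part of these and of the epithelial markers in the result was not tested. All 16 macrophage and monocyte markers had positive log2 fold changes (median 0.77), Arg1 and Fcgr3 being at 0.94 and 0.84. Their summed level, scaled by total counts without TMM factors, was 2770 to 4134 CPM before the peak and 4842 to 6585 CPM with it. Fibroblast markers were positive for 11 of 12 (Pdgfra 0.56, Dcn 0.99), endothelial for 10 of 11 (Tek 0.55, Eng 0.28), neutrophil for 7 of 8 (Mmp8 1.33, Csf3r 0.43), skeletal muscle for 14 of 14 (Ryr1 3.00, Des 3.79) and erythroid for 5 of 5 (Alas2 2.94, Hbb-bt 3.14). T and NK cell markers were negative for 10 of 13 (Prf1 1.00, Cd247 -0.47) and B and plasma cell markers for 8 of 9 (Pax5 -2.60, Ms4a1 -2.42). Before-peak replicate 3 was the highest tumor in both, with scores of 4.05 and 5.77, and the mean scores of both lists were nevertheless higher with peak, by 0.229 and 0.205. With-peak replicates 2 and 3 carried the erythroid signal, their scores of 7.53 and 8.015 standing against 4.16 to 4.91 in the other 4 tumors. By edgeR 0 markers of these lists were called, while DESeq2 called 8 macrophage, 4 skeletal muscle, 2 erythroid and 1 epithelial marker. With-peak replicate 1, lowest in most cell cycle genes, had the highest neutrophil score, 5.47 against 4.25 to 5.02, and with-peak replicate 2 the lowest epithelial score.

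The wider cell cycle program, taken from lists of other genes, leaned the same way and held 0 genes called by edgeR, DESeq2 or limma-voom. Of 46 other replication genes 39 were negative, with a median log2 fold change of -0.16. Slbp, the histone mRNA binding protein gene, was at 60.2 ± 6.75 CPM (SD, n = 3) in before-peak and 47.4 ± 6.17 in with-peak tumors, and Dnmt1, the maintenance DNA methyltransferase gene, at 177.5 ± 10.2 and 143 ± 20.4 CPM. Of 56 other mitotic genes 47 were negative, with a median of -0.14. The other 9 were positive, and Ube2c had the largest log2 fold change of the list in either direction, 0.65 (SE 0.31). It was at 103, 89.8 and 76.6 CPM before the peak and at 78.6, 181 and 164 CPM with it. Knl1, a kinetochore scaffold gene, was at 40.7 ± 7.70 and 28.8 ± 2.76 CPM, a log2 fold change of -0.50 (SE 0.17), and Kif15, a spindle motor gene, at 45.5 ± 6.15 and 33.2 ± 4.56 CPM (-0.46, SE 0.16). The scores of both lists overlapped between groups. At an unadjusted p under 0.05 there were 2 replication and 5 mitotic genes of these lists, all lower, beside the 3.38% of all genes given above.

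Upstream of S phase, 14 of 16 genes of the E2F, MuvB and MYC list were negative, with Mybl2, which encodes B-MYB, at 27.8 ± 1.05 before the peak and 20.9 ± 4.28 CPM with it and Tfdp1, an E2F partner gene, at 129.8 ± 11.5 and 109.8 ± 3.12 CPM. The score of this list ran from 5.01 to 5.13 in before-peak and from 4.94 to 4.96 in with-peak tumors, without overlap. G1 cyclins and kinases were negative for 7 of 10, with Cdc25a and Cdk2 at log2 fold changes of -0.36 and -0.25 and Ccnd1, cyclin D1, at -0.04. CDK inhibitors and pocket proteins leaned the other way, with 7 of 9 positive. Cdkn1c, a CDK inhibitor gene, was at 2.81, 2.51 and 2.83 CPM before the peak and 2.95, 9.64 and 10.2 CPM with it, a log2 fold change of 1.47 (SE 0.45) at an edgeR adjusted p of 0.384. Its high values were in with-peak replicates 2 and 3, the tumors high in skeletal muscle genes. Cdkn1a, which encodes p21, was at 45.7, 51.3 and 51.7 CPM before the peak and 62.6, 61.1 and 53.7 CPM with it, without overlap (log2 fold change 0.26, SE 0.12). Of 15 p53 target genes 11 were positive, with Ccng1 and Pmaip1 at log2 fold changes of 0.31 and 0.55, and 0 in these lists were called by edgeR.

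Levels can be compared between genes only per length, here as CPM per kilobase of the principal transcript. On that scale Pcna was highest before the peak, at 121 ± 8.69 (SD, n = 3), followed by Top2a at 71.0 ± 9.16 and Birc5 at 70.2 ± 5.96, which did not differ beyond their spread. Mcm6, at 59.0 ± 4.08, and Cdc20, at 55.0 ± 3.70, came next, also within their spread. The lowest levels were those of Brca1, at 3.63 ± 0.45, Pole, at 4.36 ± 0.60, and Ccne1, at 4.82 ± 0.75. The 6 helicase subunits, which form a ring with 1 copy of each, were not at equal transcript levels: Mcm7, Mcm3 and Mcm5 were at 39.8, 38.96 and 36.6 and Mcm4 and Mcm2 at 28.7 and 27.25 per kilobase. With peak, Mcm6 was at 47.7 ± 7.26 and was still the highest of them, and Mcm4 and Mcm2, at 21.3 ± 3.43 and 23.2 ± 2.92, the lowest. The order of genes depends on the length taken. The principal transcript has 947 bases in Birc5 and 3371 in Mcm2, while all annotated exons cover 3402 and 6956 bases. The SDs do not cover this choice, and the annotation used for counting is not known.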

How the data were processed

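The deposited table holds unnormalized counts, whole numbers for each gene and tumor. The authors used FastQC, STAR and the mm10 build, per the submitters' processing notes. The sources used here name no read counter, annotation or gene filter. Libraries were oligo(dT)-selected, paired-end and without strand marking, per the labels' protocols. Symbols and coordinates came from GENCODE M21 (GRCm38, the assembly of mm10), which matched 23479 of 23508 identifiers. Counts were tested with edgeR 4.0.16 (quasi-likelihood, robust, two-sided; TMM scaling) after filterByExpr (min.count 10, min.total.count 15), which left 16755 genes. P-values were Benjamini-Hochberg adjusted over all of these, with a threshold of 0.05. The SE is the absolute log2 fold change divided by the square root of F. Scores are mean log2 CPM with a prior count of 2. Alternatives used DESeq2 1.42.0, limma-voom (limma 3.58.1), other scalings and filters, a replicate block, and left-out tumors. The edgeR script was tested on simulated data.

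Members and gene lists were chosen with earlier results of these data known. Genes given in full were, by rule, the 5 with the smallest p-values in each phase, the extremes, and a set fixed by name (Mki67, Top2a, Ccnb1, Cdk1, Mcm2, Pcna, Ccne1, Ccne2, E2f1, Foxm1, Rrm2), and from other lists the 2 with the smallest p-values, of which 1 is not reported here. Others were named after their values were seen. Chi-square per degree of freedom between tumors of 1 group was 17.1 to 28.9, so none was counted as a duplicate.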

Additional observations from a re-analysis of the deposited data

How the results depend on the processing

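For the 39 genes, 0 were called under each of the alternatives run, and the lowest adjusted p was 0.268 (DESeq2, Mcm4). The sign of the log2 fold change turned in at least 1 of 15 other fits for 5 genes, Ccne1, Cdt1, Gins2, Brca1 and Birc5, and in none for the other 34. Over all genes, edgeR called 0; no filter on low counts gave 29, DESeq2 265, an adjusted p under 0.1 35, the replicate block 1, and leaving out replicate 3 of both groups 4; the cause was not tested. Leaving out 1 tumor gave 0 to 17 genes. The median of S phase genes ran from -0.33 to -0.15 with 1 tumor left out, the latter without with-peak replicate 1. The S phase minus mitotic difference was -0.003 as a median over genes. The labels state no pairing, and correlations between deviations of tumors that share a number were -0.06, -0.10 and 0.03. With the replicate block, 0 of the 39 genes were called and the median log2 fold changes of S phase and mitotic genes were -0.28 and -0.18. At SEs of 0.10 to 0.27, differences of the size seen here did not pass the test in any single gene of the 39.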
